A study of Mus musculus with 8 samples.

Results

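The core focal adhesion genes are 10 mouse genes (Ptk2, Vcl, Tln1, Pxn, Zyx, Ilk, Parva, Src, Bcar1 and Fermt2), chosen by symbol among the 46517 genes of the deposited table. All 10 were matched to their Ensembl identifier and passed the filter on low counts. They were measured by RNA sequencing of mouse epididymal ducts at E18.5, late in gestation; the labels also call this tissue Wolffian duct, the embryonic tube that becomes the epididymis. The 4 conditional knockout libraries (cKO 1, 2, 4 and 5) carried the disrupted Xst87 allele of Ptk7 over a floxed allele, Ptk7Xst87/flox. The 4 control libraries (control 1, 3, 4 and 6) were Ptk7+/flox, with a wild-type allele in place of the disrupted one. Both groups also carried the T-Cre transgene, whose T (Brachyury) promoter is active in early mesoderm, and the mT/mG reporter. The controls thus carried Cre and 1 floxed allele as well. Ptk7 encodes a transmembrane pseudokinase of planar cell polarity and WNT signalling, and the series asks how it acts on matrix assembly, RAC1 and myosin II in the mesenchyme around the duct. No label states that each library is a separate embryo, and the p-values therefore rest on differences among these libraries that may be technical.

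A focal adhesion joins the actin cytoskeleton to the extracellular matrix through integrins. Talin and kindlin bind the integrin tail and switch the receptor on, vinculin and the complex of integrin-linked kinase, PINCH and parvin tie it to actin, and zyxin gathers on tensed actin fibres. Focal adhesion kinase (FAK) and Src phosphorylate the adaptors paxillin and p130Cas, which lead to RAC1. In a developing duct these proteins work in the epithelium, on its basement membrane, and in the surrounding mesenchyme and smooth muscle. RNA levels do not report their phosphorylation or assembly.

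Total counts were 24807970 to 29590547 per library. The library labelled cKO 5 had 194 CPM of Ptk7 (CPM is the count scaled to library size, here with TMM factors for composition), against 7.33 to 12.5 CPM in cKO 1, 2 and 4 and 112 to 313 CPM in the controls. The log2 fold change of Ptk7 was -1.82 over all libraries (SE 0.95, edgeR adjusted p = 0.655) and -4.42 without that library (edgeR adjusted p = 0.00805). Its Ptk7 level goes against its label, so each member's fold change is given with it and without it. Control 3 also stood apart, with 3.47% of its counts from mitochondrial genes, against 1.82% to 2.64% in the other 7 libraries. None of 19 markers of duct epithelium was at 0 in any library. None of 14 mesenchyme markers was at 0 either. The tissue was sequenced in bulk, so fewer cells of a type and less RNA per cell cannot be told apart.

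No core focal adhesion gene passed the test between knockout label and control. In edgeR's quasi-likelihood test, 0 of the 10 had an adjusted p under 0.05 over all 16469 tested genes, where 0% of all genes did. The smallest adjusted p among them was 0.684. An unadjusted p under 0.05 was reached by 0 of 10, against 8.37% of all tested genes (3.5% higher and 4.87% lower). DESeq2 called 0 of 10, against 1.13% of all tested genes. The median log2 fold change of the 10 was 0.03, with 5 above 0 and 5 below, and that of all tested genes was 0.01. Without the library labelled cKO 5 the median of the 10 was -0.05 and 0 were called by edgeR (smallest adjusted p = 0.338), where 0.00599% of all genes were. Without it and control 3, 0 were called as well (smallest edgeR adjusted p = 0.153), where 0.0181% of all genes were. The groups did not overlap for 1 gene, Src, which was higher, where 2.65% of all tested genes were higher without overlap, 3.11% lower and 5.76% in either direction. Scaled anew without the library labelled cKO 5 there were 2 such members, Src higher and Vcl lower, where 5.29% of all genes were higher, 5.79% lower and 11.1% in either direction. On the CPM scale of all 8 libraries, used for the values printed here, Ptk2 was then lower without overlap too, at 86.502 CPM in cKO 1 against 86.503 CPM in control 1. Without control 3 as well, the count was again 2, where 7.66% were higher, 7.41% lower and 15.1% in either direction.

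**Figure D1:**
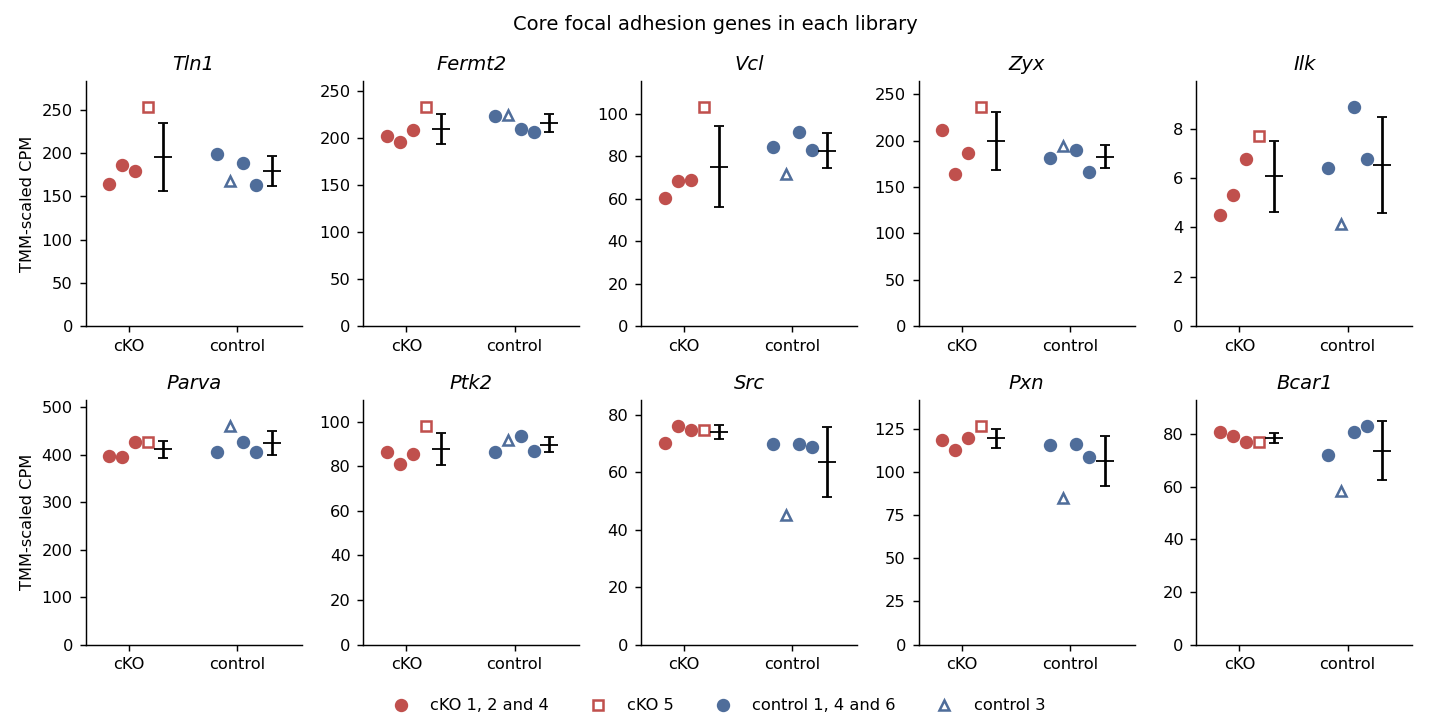
TMM-scaled CPM of each core focal adhesion gene in the 4 cKO libraries (left) and 4 control libraries (right), with the mean and SD of each group in black; open squares are the library labelled cKO 5 and open triangles are control 3. The square stands highest of its group for Tln1, Fermt2, Vcl, Zyx, Ilk, Ptk2 and Pxn, and the triangle lowest of its group for Vcl, Ilk, Src, Pxn and Bcar1. Over all tested genes those libraries stood so for 26.6% and 35.3%.

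Expressed per exon length, kindlin-2 and alpha-parvin stood highest and Ilk lowest. Levels were taken as TPM (counts divided by exon length and scaled to the same sum in each library). Genes can be compared on that scale, but their order can depend on the length used. The length was that of all exons of a gene merged, and can differ from that of its longest transcript. For Parva it was 10157 bases against 5869, for Zyx 5390 against 3188, for Pxn 8195 against 3761 and for Fermt2 3746 against 3293. The order by transcript length was not tested. Fermt2 encodes kindlin-2, the kindlin of most cells outside blood and surface epithelium. It averaged 116 ± 10.9 TPM in cKO and 120.0 ± 6.02 TPM in control libraries (SD, n = 4 each), above 92.9% of tested genes. Parva (alpha-parvin, an actin-binding partner of integrin-linked kinase) followed with 84.1 ± 5.996 TPM in cKO and 87.2 ± 6.20 TPM in control libraries. Zyx, which encodes zyxin, stood at 76.7 ± 10.9 TPM in cKO and 70.7 ± 5.50 TPM in control libraries. Fermt2 and Parva did not overlap in either group, and neither did Zyx and Bcar1, while Parva and Zyx overlapped in cKO libraries.

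The middle of the order held the kinases, the adaptors and the actin linkers. Bcar1 (p130Cas, a Src substrate) averaged 51.5 ± 2.37 TPM in cKO and 48.4 ± 7.10 TPM in control libraries. Tln1 (talin-1, the integrin activator) averaged 41.6 ± 9.27 and Ptk2 (FAK) 36.6 ± 3.38 TPM in cKO, against 38.2 ± 3.53 and 37.5 ± 1.82 TPM in control libraries. Src, Vcl (vinculin) and Pxn (paxillin) had means over all libraries of 32.7, 31.4 and 28.7 TPM. The Vcl level is uncertain, since part of its exons is shared with Ap3m1: it had 15.1 CPM per kilobase of exon but 25.1 CPM per kilobase of unshared exon, where Bcar1 had 24.0. From Bcar1 down to Pxn, each gene overlapped the next in cKO libraries, and in control libraries all but Ptk2 and Src did. Farther apart in the order, Bcar1 overlapped none of Src, Vcl and Pxn in either group, nor did Ptk2 overlap Pxn.

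Ilk, the gene of integrin-linked kinase, had a mean of 4.79 TPM over all libraries, above 31.7% of tested genes. It lies on chromosome 7 (GRCm38, 105736592 to 105742925, plus strand), and in the deposited gene models 89.7% of its 2744 exonic bases are also exon of Taf10 or Rrp8, its neighbours on that locus. Only 283 of its bases belong to no other gene. How reads in shared exons were counted is not given in the sources used here. Per kilobase of exon Ilk had 2.30 CPM, and per kilobase of unshared exon 22.3 CPM, a value between those of Tln1 (19.9) and Bcar1 (24.0), with Vcl (25.1) above them on that scale. The Ilk level is therefore uncertain too. Its binding partners in the same complex had 65.6 ± 1.603 TPM in cKO and 71.8 ± 5.30 TPM in control libraries for Lims1 (PINCH-1) and 25.2 ± 0.550 against 25.1 ± 2.14 TPM for Rsu1. Taf10, which shares most of the Ilk exons from the opposite strand, had 59.7 to 69.0 CPM in cKO libraries, against 35.7 CPM in control 3 and 59.5 to 63.2 CPM in the other controls.

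Talin and kindlin, the proteins that engage the integrin tail, gave no call. Tln1 (ENSMUSG00000028465) had 165, 186 and 179 CPM in cKO 1, 2 and 4 and 253 CPM in the library labelled cKO 5. Controls 1, 3, 4 and 6 had 199, 168, 188 and 163 CPM. Only the library labelled cKO 5 lay outside the control range, above it. For Tln1 the log2 fold change of 0.12 had an SE of 0.13 (edgeR adjusted p = 0.813). Leaving out that library gave -0.02 (SE 0.09, edgeR adjusted p = 0.951). Fermt2 ranged over 196 to 232 CPM in cKO and 206 to 225 CPM in control libraries, and its log2 fold change of -0.04 had an SE of 0.08 (edgeR adjusted p = 0.890). Without the library labelled cKO 5, Fermt2 was at -0.10 (edgeR adjusted p = 0.736). The 95% interval of Fermt2 over all libraries ran from 0.864-fold to 1.09-fold. The narrow interval bounds any difference in Fermt2 between these groups more tightly than in Tln1, whose interval ran from 0.892-fold to 1.33-fold.

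Among the genes that couple adhesions to actin, Vcl was lowest in cKO 1, 2 and 4 and highest in the library labelled cKO 5, without passing the test. Vinculin binds talin and actin and strengthens adhesions under load. Vcl (GRCm38 chromosome 14, 20929433 to 21033673, plus strand) had 60.1, 68.4 and 68.9 CPM in cKO 1, 2 and 4 and 103 CPM in the library labelled cKO 5. Controls 1, 3, 4 and 6 had 84.2, 71.6, 91.4 and 82.8 CPM. All controls lay between cKO 1, 2 and 4 on one side and the library labelled cKO 5 on the other. With all libraries the Vcl log2 fold change was -0.14 (SE 0.15, edgeR adjusted p = 0.820). Without the library labelled cKO 5 it was -0.33 (SE 0.09, 95% interval 0.690-fold to 0.923-fold), with an unadjusted edgeR p of 0.00628 and an adjusted p of 0.338. Vcl was then the 1 member of 10 at an unadjusted p under 0.05 and lower in cKO, where 5% of all tested genes were lower at that p, 3.74% higher and 8.74% in either direction. Without control 3 as well its log2 fold change was -0.38 (SE 0.07, edgeR adjusted p = 0.153), again the 1 member of 10 at that p, where 5.05% of all tested genes were lower, 4.48% higher and 9.53% in either direction. DESeq2 did not call Vcl without the library labelled cKO 5 (adjusted p = 0.153), where 1.13% of all tested genes were called. Leaving out cKO 1 alone gave a Vcl log2 fold change of -0.04 (edgeR adjusted p = 0.956). The choice to leave out the library labelled cKO 5 was made with the Ptk7 levels known.

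In the deposited models 39.9% of the Vcl exonic bases are shared with Ap3m1, a gene on the opposite strand, and without the strand setting their reads cannot be told apart. Ap3m1 itself had 53.6 to 58.3 CPM in cKO and 53.8 to 64.6 CPM in control libraries (log2 fold change -0.05, edgeR adjusted p = 0.862). Vcl is known as a target of serum response factor (SRF), which binds the CArG box, and a match to it lies upstream of Vcl. The CArG pattern is its own reverse complement, so 1 search covers both strands. Of the 10 genes 7 had RefSeq promoter windows (GRCm38.p6, 250 bases before to 50 after a start site), and 2 of the 7 held a match, Vcl and Fermt2. Of 32851 windows of all genes, 1.63% held it, and the 7 genes had 9 windows among them. Both are shown for 100 bases, 5′ to 3′ on the gene's strand, with the match in capitals; Vcl is at chr14:20929148-20929247 (plus strand) and Fermt2 at chr14:45530215-45530314 (minus strand).
Vcl: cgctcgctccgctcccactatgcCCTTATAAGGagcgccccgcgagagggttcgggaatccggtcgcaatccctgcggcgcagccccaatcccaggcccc
Fermt2: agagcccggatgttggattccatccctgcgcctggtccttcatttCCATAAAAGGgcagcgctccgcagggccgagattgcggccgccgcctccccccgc
The match begins at position -227 from the start site in Vcl and -204 in Fermt2. It is a match of letters and no measure of binding. Of the other SRF targets given below, 19 had a window and 7 of those held a match. Fermt2 had 196 to 208 CPM in cKO 1, 2 and 4, which overlapped the controls (206 to 225 CPM). The part of SRF in the Vcl and Fermt2 values was not tested.

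Zyx, Parva and Ilk, the remaining actin-linked members, overlapped between the groups. Zyx had 211, 164 and 186 CPM in cKO 1, 2 and 4, and 236 CPM in the library labelled cKO 5. Controls 1, 3, 4 and 6 had 181, 194, 190 and 166 CPM, so cKO 2 lay just below the control range, cKO 1 and the library labelled cKO 5 above it. The log2 fold change of Zyx was 0.13 (SE 0.11, edgeR adjusted p = 0.779). It was 0.04 when the library labelled cKO 5 was left out (edgeR adjusted p = 0.934). Parva ranged over 394 to 427 CPM in cKO and 406 to 460.5 CPM in control libraries, with a log2 fold change of -0.05 (SE 0.07, edgeR adjusted p = 0.869). The Parva 95% interval ran from 0.866-fold to 1.08-fold, and without the library labelled cKO 5 the value was -0.07 (edgeR adjusted p = 0.827). Ilk had 117, 139 and 178 reads in cKO 1, 2 and 4 and 188 in the library labelled cKO 5, against 162, 124, 255 and 184 reads in controls 1, 3, 4 and 6. The Ilk log2 fold change of -0.11 had the widest SE of the 10, 0.24 (edgeR adjusted p = 0.914). Ilk was at -0.24 without the library labelled cKO 5 (edgeR adjusted p = 0.796).

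**Figure D2:**
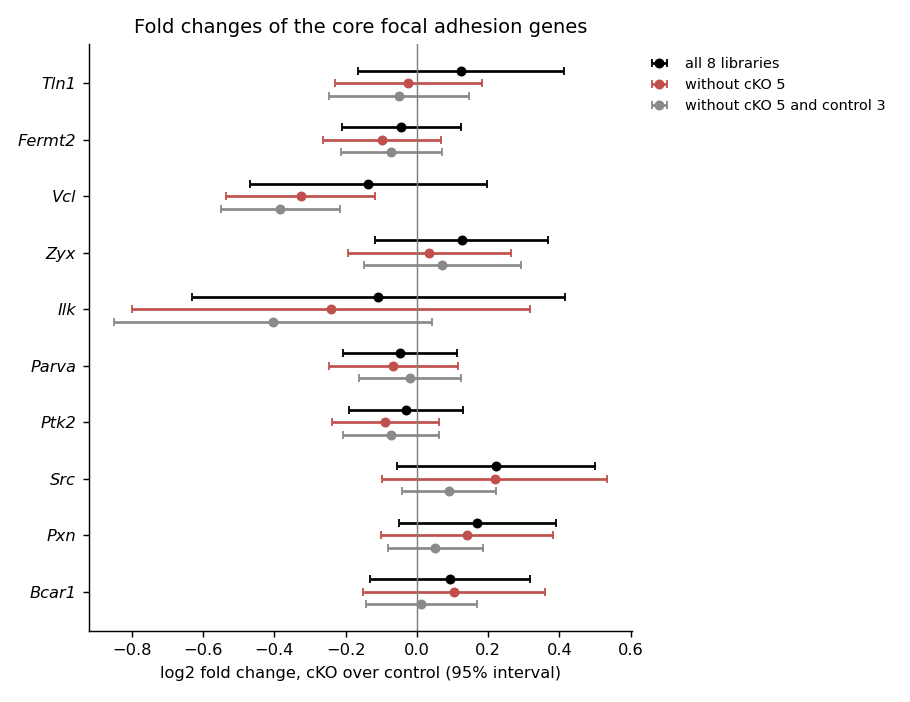
Log2 fold change of each gene, cKO over control, with its approximate 95% interval from edgeR, for all 8 libraries, without the library labelled cKO 5, and without that library and control 3. All intervals cross 0 except those of Vcl in both reduced sets, where its log2 fold change was -0.33 and -0.38.

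No kinase or adaptor was called, and control 3 was the lowest library for 3 of the 4, Src, Pxn and Bcar1. Control 3 was the lowest control for 5 of the 10 members and for 35.3% of all tested genes. Src, the tyrosine kinase that pairs with FAK, had 70.2, 76.1, 74.5 and 74.7 CPM in cKO 1, 2, 4 and 5. Controls 1, 4 and 6 had 69.7, 69.7 and 68.8 CPM, and control 3 had 45.0 CPM. All cKO values were above all control values, by a margin of less than 1 CPM between cKO 1 and control 1. The log2 fold change of Src was 0.22 (SE 0.13, edgeR adjusted p = 0.684), and without control 3 it was 0.09 (edgeR adjusted p = 0.845). Pxn, the adaptor paxillin, had 119, 113, 120 and 127 CPM in cKO 1, 2, 4 and 5, against 116, 85.1, 116 and 108 CPM in controls 1, 3, 4 and 6. Its log2 fold change was 0.17 (SE 0.10, edgeR adjusted p = 0.692), and 0.08 without control 3. Bcar1 had 77.0 to 80.8 CPM in the cKO libraries, against 72.1, 58.5, 81.0 and 83.2 CPM in controls 1, 3, 4 and 6. The log2 fold change of Bcar1 was 0.09 (SE 0.10, edgeR adjusted p = 0.818). When the library labelled cKO 5 was left out, Src was at 0.22, Pxn at 0.14 and Bcar1 at 0.10 (edgeR adjusted p = 0.693, 0.736 and 0.806).

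Ptk2, the gene of FAK, had the log2 fold change smallest in size among the signalling members over all 8 libraries. It had 86.5, 81.2 and 85.5 CPM in cKO 1, 2 and 4, 98.2 CPM in the library labelled cKO 5, and 86.5 to 93.6 CPM in the controls. The log2 fold change was -0.03 (SE 0.07, edgeR adjusted p = 0.921), with a 95% interval from 0.876-fold to 1.09-fold. Without the library labelled cKO 5 it was -0.09 (SE 0.07, edgeR adjusted p = 0.735).

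Control 3 differed from the other controls by the base composition of transcripts, and the members fell on both sides of it. Tested genes with a transcript sequence were split into 5 bins of GC content. Relative to the other controls, the median difference of control 3 in log2 CPM was 0.16 in bin 1 (27.5% to 44.0% GC) and -0.33 in bin 5 (55.5% to 75.5% GC). For the library labelled cKO 5, set against the other cKO libraries, it was -0.03 and 0.01 in those bins. Of the 10 members, 5 (Tln1, Pxn, Zyx, Src and Bcar1) lie in bin 5. In control 3, Src stood at -0.62, Bcar1 at -0.43, Pxn at -0.41 and Tln1 at -0.12 relative to the other controls, and Zyx at 0.12. Parva, Fermt2 and Ptk2, which lie in bin 2, stood at 0.16, 0.08 and 0.05. In bin 3, where the median difference of control 3 was 0.03, Vcl stood at -0.26 and Ilk at -0.81. The part of base composition in the group differences of Src, Pxn and Bcar1 was not tested. Without control 3 their log2 fold changes were 0.09, 0.08 and -0.0029.

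**Figure D3:**
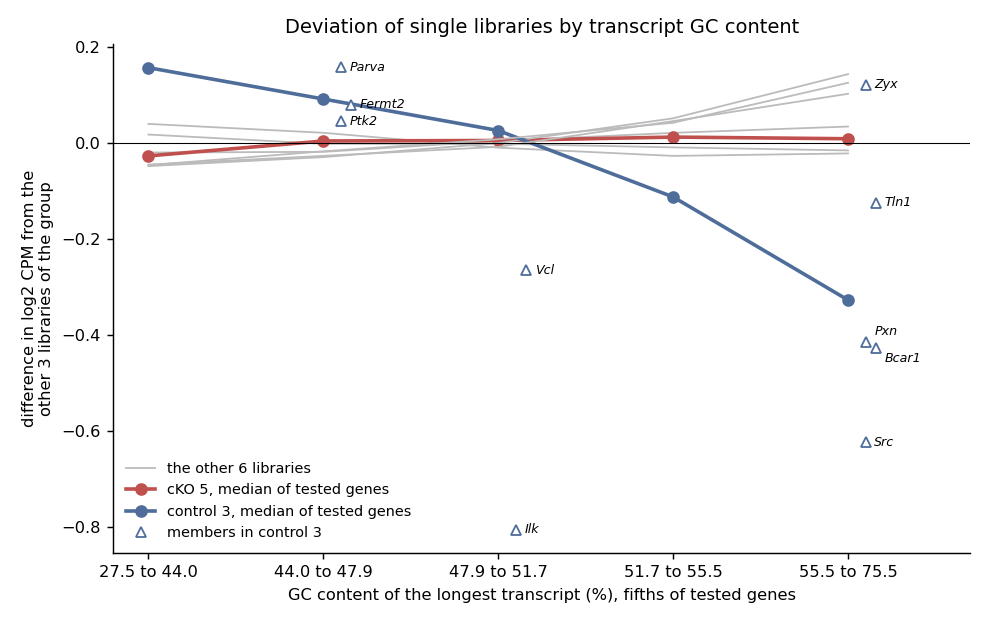
Median difference in log2 CPM of each library from the other 3 libraries of its group, by 5 bins of tested genes in GC content of the longest transcript (x axis, percent), with the members in control 3 as open triangles. The line of control 3 runs from 0.16 to -0.33. In the bin of highest GC, Src, Bcar1 and Pxn lie below that line while Zyx and Tln1 lie above it. In the middle bin, Vcl and Ilk lie below it.

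For 7 of the 10 genes the library labelled cKO 5 was the highest of its group, where it was the highest for 26.6% of all tested genes. Those 7 were Ptk2, Vcl, Tln1, Pxn, Zyx, Ilk and Fermt2. Relative to cKO 1, 2 and 4, it stood higher in log2 CPM by 0.65 for Vcl, 0.52 for Tln1, 0.49 for Ilk and 0.34 for Zyx. For Parva, Src and Bcar1 the difference was 0.07, 0.02 and -0.04. For Vcl, Tln1, Zyx, Ptk2, Pxn and Fermt2 it was the highest of all 8 libraries. In the bin of genes with the longest transcripts, which holds Vcl, Tln1 and Parva, the median difference of that library was 0.07. For cKO 1, 2 and 4 it was -0.11, -0.04 and 0.07 in that bin. In the bin of shortest transcripts cKO 1 stood at 0.13 and the library labelled cKO 5 at -0.10. The part of transcript length in the Vcl and Tln1 values was not tested. Ranking by library was done after the values were seen, so no test goes with it.

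**Figure D4:**
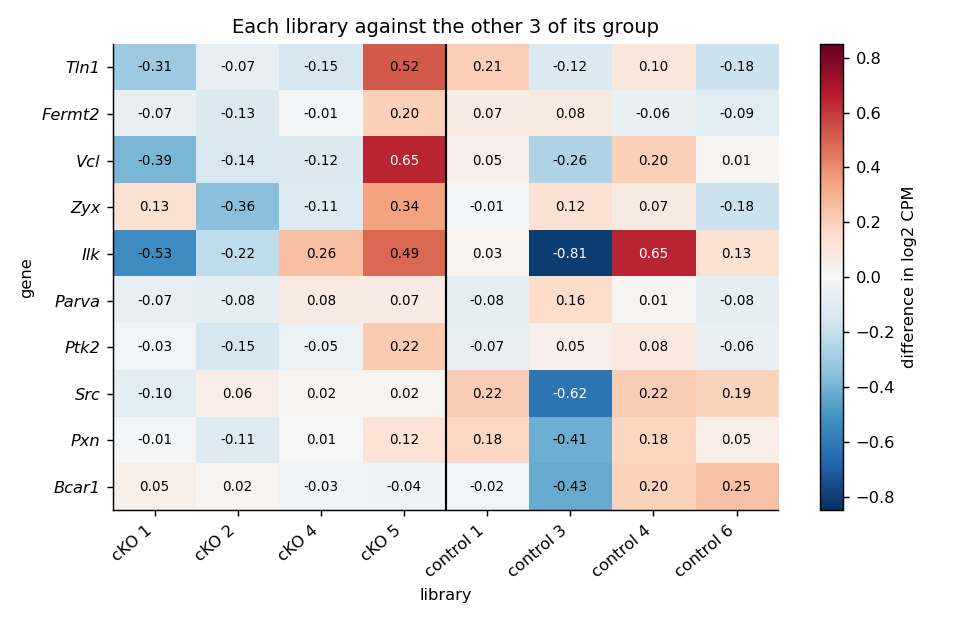
Difference in log2 CPM of each library from the other 3 libraries of its group, with cKO libraries on the left and control libraries on the right. The library labelled cKO 5 stands at 0.65 for Vcl and 0.52 for Tln1, and control 3 stands at -0.81 for Ilk and -0.62 for Src.

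The members kept closest proportion to each other in 2 sets. The log2 ratio of Ptk2 to Fermt2 had an SD of 0.06 over the 8 libraries, that of Parva to Fermt2 0.07 and that of Ptk2 to Parva 0.07. The ratios of Pxn to Src (0.10) and Pxn to Bcar1 (0.11) came next, sharing the low values of control 3. By the same measure, among genes with a mean of at least 10 CPM, the gene closest to each member was Cnot10 for Ptk2 (SD 0.02), Tpx2 for Parva (0.02), Ctnnb1 for Fermt2 (0.03), Gpr153 for Src (0.03), Ykt6 for Bcar1 (0.03) and Zfand3 for Pxn (0.03). For the more variable members it was Ccn4 for Tln1 (0.06), Rin3 for Zyx (0.06), Mcam for Vcl (0.10) and Irs2 for Ilk (0.12). These are the smallest of at least 10131 ratios each, in libraries that share their depth and composition.

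In 4 of 8 families (kindlins, focal adhesion kinases, parvins and talins) the core gene was the main transcript, and in the other 4 (paxillins, zyxins, Src kinases and Cas adaptors) a paralogue had a higher mean TPM. Fermt2 made up 91.5% ± 1.63 of kindlin TPM in cKO and 91.0% ± 0.974 in control libraries (SD, n = 4 each), beside the epithelial Fermt1 and the blood cell Fermt3. Ptk2 held 87.1% ± 1.31 and 86.7% ± 1.27 of the focal adhesion kinases in cKO and control libraries, Parva 82.9% ± 0.401 and 84.9% ± 2.13 of the parvins, and Tln1 71.2% ± 2.43 and 68.7% ± 2.62 of the talins. Bcar1 held 40.95% ± 0.402 in cKO and 40.5% ± 2.37 in control libraries, with Efs, a relative of p130Cas, at 59.4 ± 6.01 TPM in cKO and 53.4 ± 7.68 TPM in control libraries. Src held 37.5% ± 2.34 in cKO and 35.97% ± 3.47 in control libraries, beside Fyn at 46.8 ± 6.40 TPM in cKO and 40.7 ± 4.25 TPM in control libraries.

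Paxillin in all 8 libraries, and zyxin in all but control 3, had a lower TPM than a LIM-domain relative. That TPM rests on merged exon length, 5390 bases for Zyx against 2429 for Trip6 and 8195 for Pxn against 3598 for Tgfb1i1. The longest transcripts were nearer in length, 3188 bases for Zyx against 2168 for Trip6 and 3761 for Pxn against 3788 for Tgfb1i1. Shares by transcript length were not tested. In control 3 Zyx held 49.7% of its family and Trip6 41.3%. On CPM, which leaves out length, the order of zyxin and Trip6 turns, with mean shares of 47.9% and 33.2%. Pxn held 27.6% ± 2.55 of its family in cKO and 24.7% ± 5.04 in control libraries. Tgfb1i1 (Hic-5, the paxillin relative known from smooth muscle) had 77.9 ± 8.04 TPM in cKO and 82.3 ± 14.4 TPM in control libraries. Zyx held 36.7% ± 3.43 in cKO and 38.9% ± 7.29 in control libraries, against Trip6 with 123 ± 3.94 TPM in cKO and 103 ± 26.7 TPM in control libraries. Control 3 was the extreme control in both families: Trip6 had 72.9 CPM there, against 132 to 139 CPM in the other controls, and Tgfb1i1 had 177 CPM there, against 128 to 132 CPM. No member's share separated the groups. Of the 15 paralogues, the share of Parvb (beta-parvin) did, at 13.9% to 15.2% in cKO and 11.01% to 13.8% in control libraries. So did that of Lpp, at 3.73% to 4.55% in cKO and 4.68% to 9.02% in control libraries. Both margins were small. By CPM the groups overlapped for both genes, where 5.76% of all tested genes did not overlap. As single genes neither passed (Parvb log2 fold change 0.19, Lpp -0.24, edgeR adjusted p = 0.633 and 0.654).

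**Figure D5:**
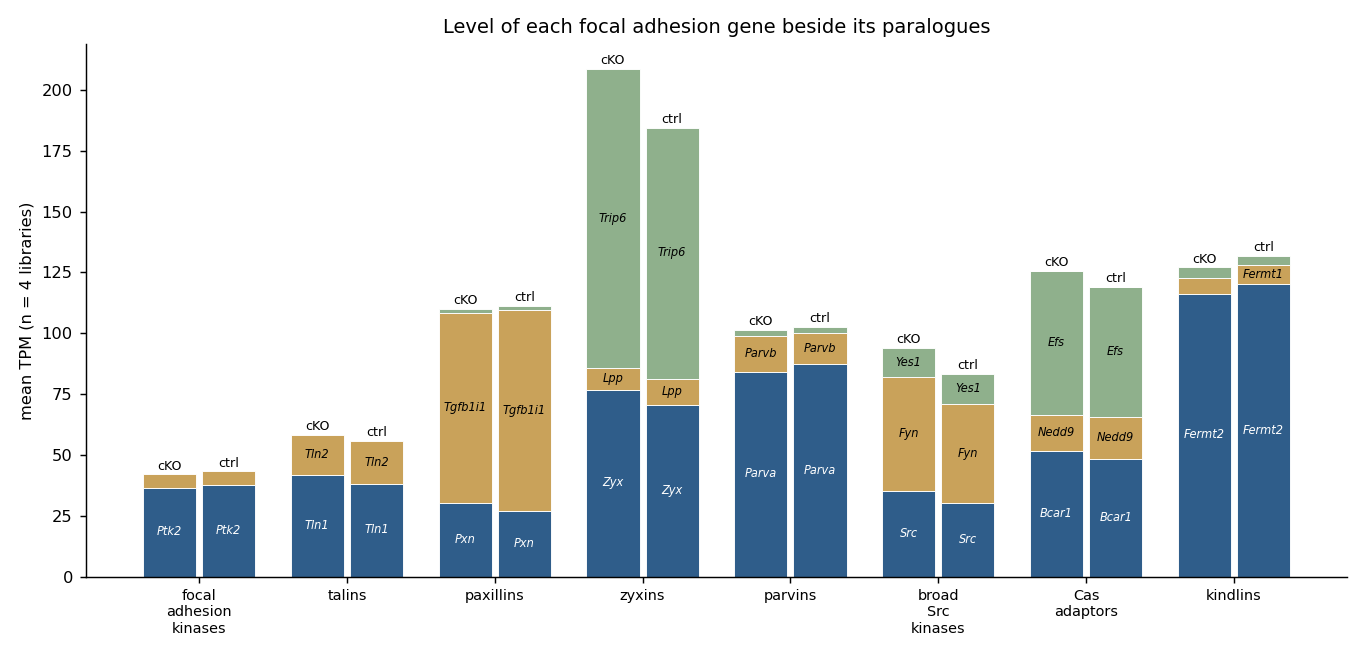
Mean TPM of each focal adhesion gene (dark blue, at the base) and its paralogues (other colours) in cKO (left bar) and control libraries (right bar), n = 4 libraries each. Mean TPM of Trip6 and Tgfb1i1 is higher than that of Zyx and Pxn, whereas Fermt2, Parva and Ptk2 make up most of their families.

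Of the other adhesion genes, partners and integrins had more genes at an unadjusted p under 0.05 than the 10 members, mostly lower, and none was called by edgeR. Over all tested genes 577 (3.5%) were higher and 802 (4.87%) lower at that p. Of 14 tested paralogues 0 were higher and 0 lower, of 43 adhesion partners 2 were higher and 6 lower, and of 17 integrin subunits 0 were higher and 5 lower. Their median log2 fold changes were -0.0038, 0.04 and -0.09. Leaving out the library labelled cKO 5 gave 0 and 0 paralogues, 1 higher and 5 lower partners, and 0 higher and 6 lower integrins, where 3.74% of all tested genes were higher and 5% lower.

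For Cav1 (caveolin-1) the log2 fold change was -0.33 (SE 0.09, edgeR adjusted p = 0.339, DESeq2 adjusted p = 0.0896). Its groups did not overlap, at 216 to 283 CPM in cKO and 288 to 345 CPM in control libraries. Over all tested genes 3.11% were lower without overlap. Without the library labelled cKO 5 DESeq2 called Cav1 (adjusted p = 0.0219) and 1.13% of all tested genes, and edgeR did not call it (adjusted p = 0.271). For Fblim1 (migfilin, which binds filamin) the log2 fold change was -0.25 (SE 0.09, edgeR adjusted p = 0.479). Flna (filamin A) and Rap1b, the partners with the highest level, were at -0.01 and 0.04. Over all 8 libraries DESeq2 called 1 of the 43 partners, a gene other than these, where 1.13% of all tested genes were called. Among integrins the smallest p values were those of Itgb6 (log2 fold change -0.97), Itga4 (-0.41) and Itgb4 (-0.40), with edgeR adjusted p of 0.163, 0.300 and 0.478. Over all 8 libraries DESeq2 called Itgb6 alone of the 17 (adjusted p = 0.0144). Its level was low, at 27 to 34 reads in cKO and 59 to 80 reads in control libraries. Itgb1, the beta subunit shared by most matrix receptors and the most abundant integrin, had 805 ± 71.3 CPM in cKO and 858 ± 60.8 CPM in control libraries (log2 fold change -0.09, SE 0.09, edgeR adjusted p = 0.791). Itgb5, a vitronectin receptor subunit, stood at 0.22 (edgeR adjusted p = 0.623), and the Src relative Fyn at 0.20 (edgeR adjusted p = 0.654).

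Of 25 other SRF targets, 0 were higher and 7 lower at an unadjusted p under 0.05, where 3.5% of all tested genes were higher and 4.87% lower, and 0 were called by edgeR. Without the library labelled cKO 5 there were 0 higher and 9 lower, where 3.74% of all tested genes were higher and 5% lower. Fhl1 (log2 fold change -0.69), Acta2 (-0.36) and Actg2 (-0.70), a muscle LIM-domain gene and 2 smooth muscle actins, had the smallest p values, with edgeR adjusted p of 0.161, 0.348 and 0.400. Actb, the cytoplasmic actin with the next highest level after Acta2, was at -0.04. Over all 8 libraries DESeq2 called Fhl1 alone of the 25 (adjusted p = 0.000672), where 1.13% of all tested genes were called. Of Fhl1, Acta2 and Actg2 it called Fhl1 and Actg2 without the library labelled cKO 5 (DESeq2 adjusted p = 0.00291 and 0.0294). That setting called 1.13% of all tested genes as well.

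Several lists of cell type markers had genes at an unadjusted p under 0.05 in the same libraries, and edgeR called 0 of them. Over all tested genes 3.5% were higher and 4.87% lower at that p. Over all 8 libraries DESeq2 called 1.13% of all tested genes. It called 4 of 19 duct epithelium, 3 of 8 mesothelium and 1 of 15 smooth muscle markers. Of neuron and Schwann markers it called 1 of 10, and of red cell markers 1 of 7. Of 15 smooth muscle markers, which share Acta2, Actg2, Myh11, Cnn1 and Tagln with the SRF targets, 1 was higher and 8 lower at an unadjusted p under 0.05, among them Casq2 (log2 fold change -0.66). Their summed level was 2871 to 3704 TPM in cKO and 3652 to 4383 TPM in control libraries. Of 19 duct epithelium markers 1 was higher and 9 lower, with Lhx1 at a log2 fold change of -0.67 and Krt18, the most abundant, at -0.03. Their summed level was 1312 to 1921 TPM in cKO and 1508 to 1725 TPM in control libraries. Mesenchyme markers summed to 6591 to 8517 TPM in cKO and 6540 to 7605 TPM in control libraries, with 0 higher and 1 lower of 14 (Pdgfra, -0.22) and Dcn, the most abundant, at 0.06.

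At an unadjusted p under 0.05, 3.5% of all tested genes were higher and 4.87% lower. Mesothelium markers had 4 higher and 0 lower of 8 tested (Myrf, 0.60, and Aldh1a2, 0.10). Neuron and Schwann cell markers had 3 higher and 0 lower of 10 (Hand2, 0.66). The mesothelium and neuron lists summed to 667 to 806 and 61.2 to 83.9 TPM in cKO. In control libraries they summed to 629 to 690.3 and 45.2 to 60.2 TPM. Krt5 of the first list and genes of the second, Elavl3 and Dbh among them, were at 0 in at least 1 library. Endothelial and macrophage markers had 0 higher and 0 lower of 10 each (Kdr, 0.14; Cdh5, -0.08; Mrc1, 0.33; C1qb, 0.19). They summed to 187 to 248 and 330.1 to 413 TPM in cKO and to 189 to 228 and 247 to 380.1 TPM in control libraries. Red cell markers had 2 higher of 7 tested (Hba-a2, 2.90, uncertain because near-identical globin genes can share its reads; Hbb-bs, 0.77, which was not among the 2), with Epb42 at 0 in at least 1 library and sums of 3461 to 10061 TPM in cKO and 1991 to 5616 TPM in control libraries. The part of these cell types in the member values, Vcl among them, was not tested.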

How the data were processed

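Total RNA of epididymal ducts was made into TruSeq libraries and sequenced on an Illumina HiSeq, per the labels' protocols. STAR, featureCounts and the build GRCm38 are named in the submitters' processing notes. Versions, strand setting and the treatment of reads in several genes: not given in the sources used here. In the deposited table are whole-number counts for each gene in 8 library columns, with totals that differ between libraries, and per the file headers each gene's exon positions and length, used for TPM and exon overlap. Symbols were matched by Ensembl identifier for 46005 of 46517 genes.

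The main test was edgeR 4.0.16 under R 4.3.3: TMM factors, filterByExpr, quasi-likelihood F test on group, Benjamini-Hochberg adjustment at 0.05 over all 16469 genes. The SE is the log2 fold change divided by the square root of F, and intervals from it are approximate. Log2 CPM used a prior count of 2. Transcript GC came from GENCODE M21, for the longest transcript. Figures were drawn with matplotlib 3.10.9. The code was tested on simulated counts. In them edgeR called 1 of 50 genes changed 1.25-fold, 19 of 50 changed 1.5-fold and 43 of 50 changed 2-fold. DESeq2 called 9, 28 and 44 of these. Among unchanged genes edgeR called 10 and DESeq2 31. Small differences can therefore go uncalled.

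Members and gene lists were chosen with earlier results of these data known. Of 212 list entries 210 were found. Named genes are the members and Ptk7, the 3 smallest p and 2 highest levels of each adhesion list, 1 of each for each marker list, and the gene closest in ratio to each member; some genes that fall under the rule are not reported here. Efs, Lims1, Rsu1, Ap3m1, Taf10, Rrp8 and Fermt1, Fermt3 were named after their values were seen. Alternatives were other size factors and filters, DESeq2 1.42.0, limma voom (limma 3.58.1), a replicate block and leaving out each library. DESeq2 without the library labelled cKO 5, and edgeR without it and control 3, were chosen after seeing the data. In all 28 pairs of libraries the counts differed beyond sampling noise (chi-square over its degrees of freedom, 13.7 to 81.7), so none was taken as a duplicate.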

Additional observations from a re-analysis of the deposited data

Results flagged for a closer look

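In groups of 4 libraries, 1 library was far from the other 3 in 11 of 102 groups of values examined, where chance gives about 1 in 20. Control 3 was that library in 7 of the 11: it was lowest for Src (45.0 CPM), Trip6 (72.9 CPM) and Hand2 (10.2 CPM), highest for Tgfb1i1 (177 CPM) and Actb (2546 CPM), and lowest in the share of Pxn in the paxillins (17.1%) and of Src in the Src kinases (30.8%). The library labelled cKO 5 was the highest of its group for Ptk7 (194 CPM) and Hbb-bs (2110 CPM). The library cKO 2 was highest for Fblim1 (244 CPM), and control 6 for Hba-a2 (22.1 CPM). Of the 20 groups of member CPM values, 1 had such a library, that of Src in controls. All these groups share the same 8 libraries and some hold the same gene. The counts therefore cannot be set against the rate of 1 in 20, which holds for independent groups.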

How the results depend on the processing

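No member passed an adjusted p of 0.05 under any of 17 alternatives (lowest 0.153, for Vcl without the library labelled cKO 5 and control 3), and 8 of 170 member fold changes turned sign, none of them called. The count of genes called over all genes, 0 in edgeR, was 1 without a filter on low counts, 186 in DESeq2, 188 in DESeq2 without the library labelled cKO 5, 3 in edgeR without it and control 3, and 0 to 2 when each library was left out (1 without the library labelled cKO 5, 2 without control 1). Members at an unadjusted p under 0.05 were 0 to 1 and members without overlap 1 to 2 when each library was left out; DESeq2 without the library labelled cKO 5, and edgeR without it and control 3, each gave 1 and 2. The replicate numbers 1 and 4 occur in both groups, but their deviations did not move together (correlation -0.09 and 0.02), so they were not taken as pairs; with the replicate block over those 4 libraries 7 genes were called, 2 members had an unadjusted p under 0.05 (9.05% of all tested genes did) and 5 did not overlap (40.3% of all tested genes did not). Without each library in turn the median log2 fold change of the members ranged from -0.05 to 0.11. The log2 fold change of Tln1 was -0.17 under the block, -0.021 in DESeq2 without the library labelled cKO 5 and -0.050 without it and control 3. With each library left out, fold changes that turned sign ranged from -0.089 to 0.0049 for Ptk2, -0.024 to 0.20 for Tln1, -0.28 to 0.073 for Ilk and -0.0029 to 0.16 for Bcar1; the cause was not tested. For Ilk it was -0.41 without the library labelled cKO 5 and control 3. On CPM in place of TPM, which leaves out length, the shares in their families were 81.8% for Ptk2, 65.2% for Tln1, 44.8% for Pxn, 47.9% for Zyx (then above Trip6, at 33.2%), 92.6% for Parva, 33.5% for Src, 36.3% for Bcar1 and 89.6% for Fermt2. Ilk had the fewest reads of the members, 117 to 255 per library; 89.7% of its exonic bases are shared with other genes.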
